A study of Rattus norvegicus with 27 samples.

Results

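Gamma-aminobutyric acid type A (GABA-A) receptors are chloride channels that open when GABA binds, and they carry most of the fast inhibition in the cortex. Each channel is assembled from several subunits, and the mix decides where it sits and which drugs it binds. Receptors with the Gabra2 or Gabra3 product mostly sit at synapses and are opened further by benzodiazepines, whereas those with the Gabra4, Gabra5 or Gabrd product mostly lie outside synapses and carry a tonic current. The 7 genes described here were chosen by name. They are the alpha subunit genes Gabra2, Gabra3, Gabra4 and Gabra5, the beta subunit genes Gabrb1 and Gabrb2, and the delta subunit gene Gabrd. These were 7 of the 36865 rows of the count table.

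Polyadenylated RNA of the medial prefrontal cortex (mPFC) was sequenced in 27 male rats of the Wistar strain, 1 library per rat, with no group to compare them against. All were adults that had been through repeated elevated plus-maze, light-dark and open field tests, and their brains were taken at rest. The sample labels also list acoustic startle, fear conditioning and, as the treatment, learned helplessness, which the study's methods do not describe for the Wistar rats that were sequenced. The rats were picked along a scale of a composite anxiety score, but the single scores were not used here, so every relation below is between genes, or between genes and library measures, and none is with behaviour.

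Libraries are named by the number in their label. The 16 libraries numbered up to 31 held 4907255 to 8568317 counts and the 11 from 32 held 9404220 to 12771309, so numbering and depth cannot be told apart, and relations are also given within the sets or as counts of those that held within them. Counts were divided by DESeq2 size factors (normalised counts). Neuronal genes marked the tissue as labelled, with Snap25 at 24623 ± 2382 and Slc17a7, the vesicular glutamate transporter of cortical excitatory neurons, at 11183 ± 1417 normalised counts (SD, n = 27), while Sst, Nsf and Kctd12 were listed at 0 in all libraries, which may not reflect their expression. Library 3 stood apart. It had the highest oligodendrocyte, astrocyte and ribosomal protein gene scores and the lowest scores of excitatory neuron, interneuron and general neuron markers among the 27, so results resting on it are also given without it. Libraries 12 and 20 had the most 18S RNA, with log2 values of 14.3 and 14, and library 47 came next with 12.4. These 2 libraries also held the highest values of several members, and an alternative below leaves both out. The 18S RNA level was called with no member.

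Promoters are shown for 4 genes, Gabra3, Gabra4 and Gabrb2, whose levels ran together across rats, and Gabrb1, whose rho with them was negative. In the GRCr8 assembly Gabrb1 and Gabra4 are next to each other on chromosome 14 and are read away from each other, in a cluster that also holds Gabra2 and Gabrg1. Gabrb2 lies in a cluster with Gabra6 on chromosome 10, Gabra5 beside Gabrg3 on chromosome 1, Gabra3 on X and Gabrd on chromosome 5. The RefSeq windows of GRCr8 run from 250 bases before to 50 bases after the annotated start and were found for 6 of the 7 members (all but Gabra2). Capitals mark matches on either strand, anywhere in the window, to TATAAA, the sequence of TATA boxes, to CCAAT, to GGGCGG, the core of GC boxes, or to TGACG, the core of cyclic AMP response elements. A match does not show that the motif acts there. The TATAAA match of Gabra3 reads TTTATA, so it lies on the other strand, and it sits toward the upstream end of the window.
Gabra3 (chrX:155543821-155544120, minus strand): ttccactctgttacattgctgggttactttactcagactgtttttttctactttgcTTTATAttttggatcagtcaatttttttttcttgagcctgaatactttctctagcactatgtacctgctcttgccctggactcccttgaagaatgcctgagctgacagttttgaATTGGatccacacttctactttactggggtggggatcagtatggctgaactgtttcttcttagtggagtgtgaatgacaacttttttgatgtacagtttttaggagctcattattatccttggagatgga
Gabra4 (chr14:36944497-36944796, plus strand): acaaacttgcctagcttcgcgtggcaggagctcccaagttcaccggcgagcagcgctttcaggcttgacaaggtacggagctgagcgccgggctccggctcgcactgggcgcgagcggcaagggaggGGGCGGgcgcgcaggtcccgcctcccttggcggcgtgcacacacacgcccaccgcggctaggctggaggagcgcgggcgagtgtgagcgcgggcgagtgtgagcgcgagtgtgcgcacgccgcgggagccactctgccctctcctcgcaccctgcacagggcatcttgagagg
Gabrb2 (chr10:27439543-27439842, plus strand): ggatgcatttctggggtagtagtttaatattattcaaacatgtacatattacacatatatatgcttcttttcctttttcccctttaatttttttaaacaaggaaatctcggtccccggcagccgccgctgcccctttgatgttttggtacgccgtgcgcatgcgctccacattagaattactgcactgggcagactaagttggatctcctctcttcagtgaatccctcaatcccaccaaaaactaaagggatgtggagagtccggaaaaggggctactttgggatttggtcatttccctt
Gabrb1 (chr14:36902844-36903143, minus strand): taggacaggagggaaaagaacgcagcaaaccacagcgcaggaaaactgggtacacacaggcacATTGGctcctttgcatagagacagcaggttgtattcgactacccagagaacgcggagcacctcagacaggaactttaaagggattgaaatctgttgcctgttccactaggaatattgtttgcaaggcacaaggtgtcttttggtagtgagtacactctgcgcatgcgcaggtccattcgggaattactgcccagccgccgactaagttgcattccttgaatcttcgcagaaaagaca

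These 4 windows differed in makeup. The Gabra4 window had 70.7% G and C with 35 CpG pairs, the Gabra3 window 39.3% with 0, the Gabrb2 window 44% with 9 and the Gabrb1 window 49.3% with 11, beside a median of 51.7% and 7 over 33469 promoter windows. Gabra4 had 1 match to GGGCGG, a motif found in 33.1% of all windows. Gabra3 had 1 match each to TATAAA (14.2% of windows) and CCAAT (37.5%), Gabrb1 had 1 to CCAAT, and in Gabrb2 none of the 4 motifs was found. None of the 4 windows held TGACG, which 21.2% of windows have. Gabra3, Gabra4 and Gabrb2 thus shared none of the searched motifs within their windows. Of the other 2 members with a window, Gabra5 had 76.3% G and C and 1 match to GGGCGG, and Gabrd 73.7% and 4 matches.

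All 7 members had a mean count of at least 10 and all 7 were more variable across rats than counting noise would be (chi-square test against a Poisson distribution, adjusted p from 8.63e-139 for Gabra5 to 1.96e-15 for Gabrd, Benjamini-Hochberg), as were 89.8% of the 11730 genes tested. Counting accounted for between 3.54% (Gabra5) and 22.2% (Gabrd) of a member's variance. The SD of log2 values had a median of 0.31 over the members and 0.19 over all genes tested. Counts were not divided by transcript length, so the levels of different members are not ranked against each other.

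**Figure D1:**
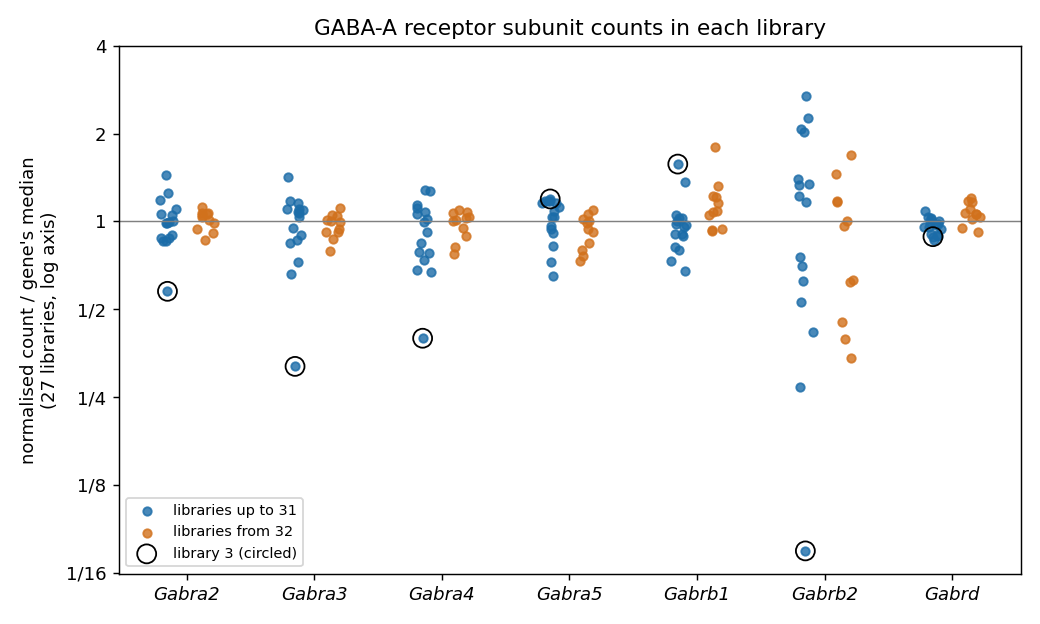
Normalised count of each subunit gene in each of 27 libraries, divided by that gene's median (log axis), with libraries numbered up to 31 in blue and from 32 in orange. Library 3 (circled) was lowest for Gabra2, Gabra3, Gabra4 and Gabrb2 and highest for Gabra5, and Gabrb2 was spread the most widely.

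Gabrb2, a beta subunit of many synaptic receptors, varied the most. Its lowest, median and highest normalised counts were 4.59 (library 3), 61.9 and 167 (library 12), with a mean of 65.9 ± 40.9 (SD, n = 27). Its quartiles were 35.6 and 84.7, a ratio of 2.38 where the median gene had 1.18. The SD of its log2 values was 1.08, above that of 99.3% of genes tested. Raw counts ran from 3 to 147, so the ratio of 36.4 between libraries 12 and 3 has a 95% counting interval of 12.2 to 178 (exact binomial). Without library 3 the lowest normalised count was 16.8 (library 28) and the SD of log2 values was 0.88.

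Gabra3, Gabra4 and Gabra2 were less variable than Gabrb2. Gabra3, the synaptic alpha subunit of the deep cortical layers among other places, ranged from 121 (library 3) over a median of 380 to 541 (library 12) with an SD of log2 values of 0.39. Gabra4, the alpha subunit that often joins the delta subunit, ranged from 171 (library 3) over 430 to 552 (library 12) normalised counts, with an SD of 0.35. In Gabra2, the alpha subunit enriched at the axon initial segment, the values were 572 (library 3), 993 and 1428 (library 20), with an SD of 0.23. Library 3 was the lowest of the 27 for all of these. It also decided part of their spread, since without it the SD of log2 values of Gabra3 was 0.23, that of Gabra4 0.26 and that of Gabra2 0.18.

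The other members were ordered otherwise. Gabra5, the alpha subunit of tonic inhibition in the hippocampus and cortex, ran from 748 (library 26) over 1151 to 1375, and its highest value was in library 3. Gabrb1 ran from 96.9 (library 6) over 143 to 258 (library 54), and library 3 was its second highest. Library 54 was the fourth lowest of 27 for Gabra2, Gabra3 and Gabrb2. Gabrd, the delta subunit that makes receptors highly sensitive to neurosteroids, was the steadiest member, with normalised counts of 483 (library 9), 557 and 672 (library 32). Its SD on the log2 scale was 0.13, and only 21.3% of genes tested had a smaller one.

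Across rats, 4 of the 21 pairs of members were called, all 4 with a positive rho and none with a negative one (Spearman's rho, 100000 permutations of the ranks, Benjamini-Hochberg adjusted over the 82082 pairs of a member with any gene tested). Over all of those pairs 7.29% were called with a positive and 5.31% with a negative rho. The median rho was 0.358 over the 21 pairs and -0.0128 between members and the other genes. The called pairs include the 3 that join Gabra3, Gabra4 and Gabrb2, and the other is Gabra2 with Gabra4. Regressing out the oligodendrocyte score raised the number to 10 (7 positive, 3 negative) and the ribosomal protein score to 8 (7 and 1), with all new negative pairs involving Gabrb1.

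**Figure D2:**
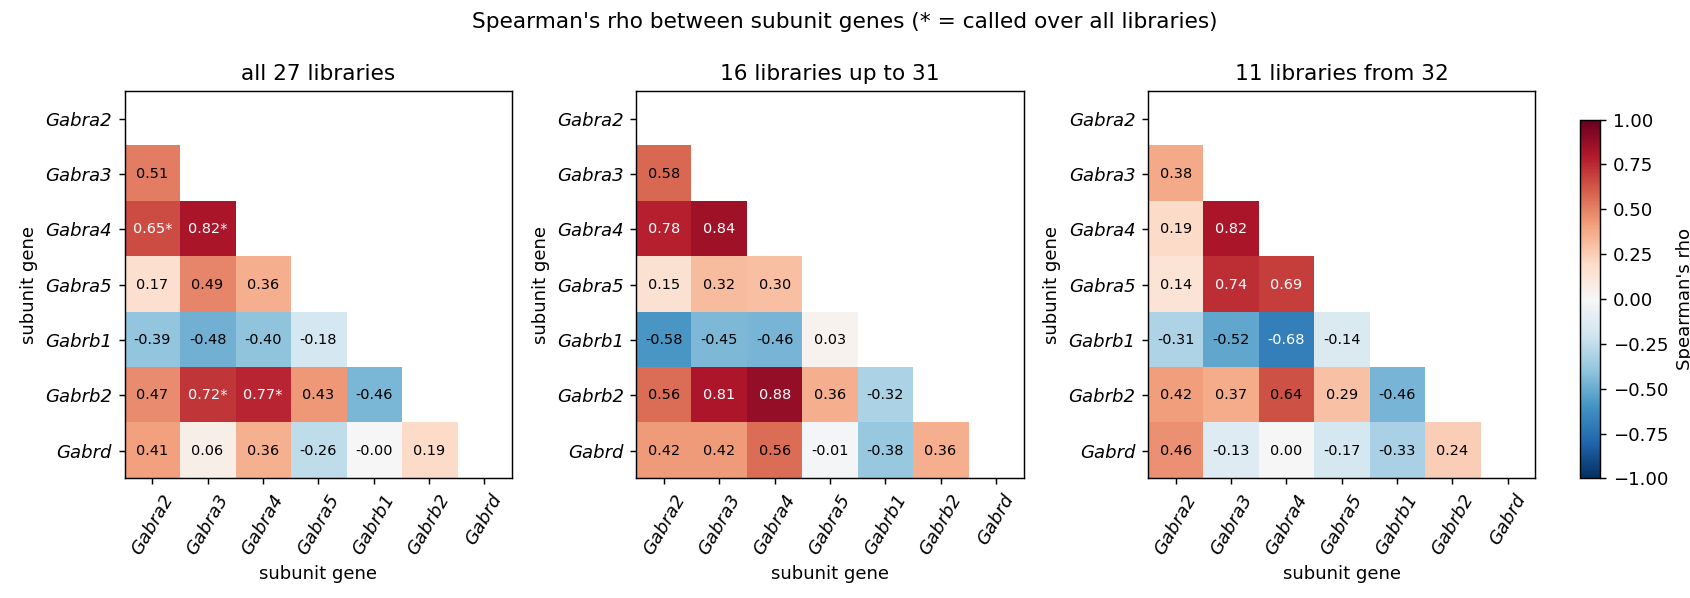
Spearman's rho between subunit genes over all 27 libraries, over the 16 numbered up to 31 and over the 11 from 32, with red for positive and blue for negative values and an asterisk for the 4 called pairs. Gabra3, Gabra4 and Gabrb2 have positive values in all 3 panels and the row of Gabrb1 is negative against Gabra2, Gabra3 and Gabra4.

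Gabra3 and Gabra4 had the closest relation among members (rho = 0.817, adjusted permutation p = 6.36e-04; Pearson's r = 0.897, permutation p = 1.00e-05). The value of rho was 0.844 in libraries up to 31 and 0.818 from 32, and r was 0.788 without libraries 3 and 19, the 2 farthest from the median of Gabra3. Gabra4 and Gabrb2 had a rho of 0.765 (adjusted permutation p = 6.36e-04; r = 0.829, permutation p = 1.00e-05), with 0.876 and 0.636 in the 2 sets, and r was 0.661 without libraries 3 and 28. A permutation p of 1.00e-05 is the smallest that 100000 permutations can give. Of the 27 libraries, 8 had Gabra3, Gabra4 and Gabrb2 all above their medians, 10 had all below, and 9 were mixed or at a median.

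Gabra3 and Gabrb2 had a rho of 0.717 (adjusted permutation p = 0.00266; r = 0.831, permutation p = 2.00e-05). Within libraries up to 31 rho was 0.812 and within those from 32 it was 0.373 (unadjusted permutation p = 0.261). Gabra2 and Gabra4 had a rho of 0.651 (adjusted permutation p = 0.0106; r = 0.851, permutation p = 1.00e-05), with 0.776 in libraries up to 31 and 0.191 from 32 (unadjusted permutation p = 0.576). Without libraries 3 and 20, r was 0.689, and without libraries 12 and 20 rho was 0.568 and was not called (adjusted permutation p = 0.0568). Neither relation passed within the 11 libraries from 32 alone, and both were called when all libraries were centred within the sets (rho = 0.741 and 0.677, adjusted permutation p = 0.000487 and 0.00499). Whether rho differed between the 2 sets was not tested.

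**Figure D3:**
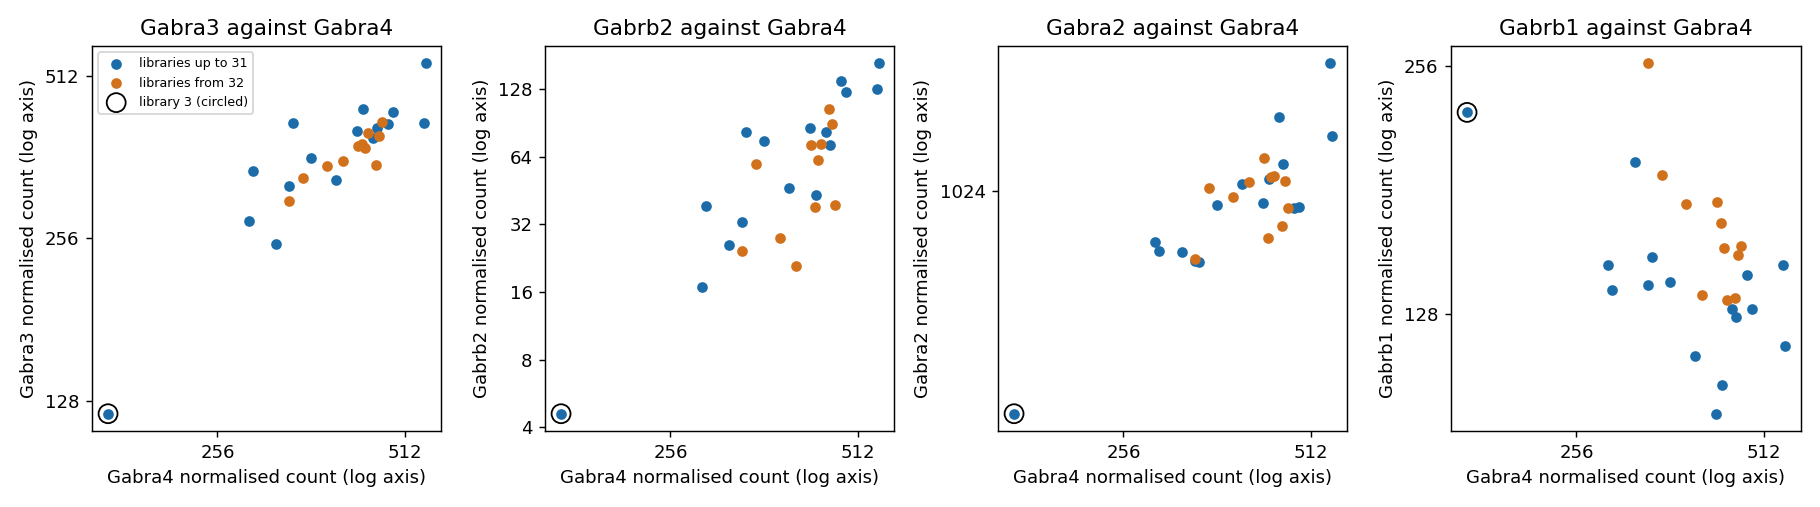
Normalised counts of Gabra3, Gabrb2, Gabra2 and Gabrb1 (vertical, log axes) against Gabra4 (horizontal, log axes), 1 point per library, with libraries up to 31 in blue, from 32 in orange and library 3 circled. The first 3 genes rise with Gabra4 (rho of 0.817, 0.765 and 0.651), and Gabrb1 has a rho of -0.404, which was not called.

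Gabrb1 had a negative rho with the alpha subunit genes and Gabrb2, and -0.00183 with Gabrd. It was -0.479 with Gabra3 (adjusted permutation p = 0.0736), -0.455 with Gabrb2 (0.0918), -0.404 with Gabra4 (0.15) and -0.394 with Gabra2 (0.163), and none of these was called. All 4 were negative in both sets of libraries. Centring within the sets gave rho = -0.572 for Gabra4 with Gabrb1 (adjusted permutation p = 0.0243), but with an excitatory neuron score regressed out it was 0.0641 (adjusted permutation p = 0.9). Gabra5 with Gabra3 had a rho of 0.492 (adjusted permutation p = 0.0637) and 0.671 without library 3 (adjusted permutation p = 0.00511), which was called, and within the sets rho was 0.315 and 0.736. Gabra5 with Gabrb2 likewise went from 0.43 (adjusted permutation p = 0.118) to 0.601 without library 3 (adjusted permutation p = 0.0224). Gabrd had its largest value with Gabra2 (rho = 0.41, adjusted permutation p = 0.142) and its value with Gabra3 was 0.0604, so no relation of the delta subunit with another member was called.

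Members differed in how many of the other 11729 genes followed them. Gabra3 had 1378 genes with a positive and 875 with a negative rho called, Gabrb2 1334 and 863, Gabra4 1251 and 821, and Gabra5 877 and 768. Fewer genes followed Gabra2 (521 and 266), Gabrb1 (391 and 452) and Gabrd (236 and 315). The share called in either direction thus ran from 4.7% for Gabrd to 19.2% for Gabra3. The genes with the highest rho were Snx13 (0.962), Frmpd4 (0.955) and Itgb8 (0.949) for Gabrb2. For Gabra3 they were Nceh1 (0.942), Prepl (0.937) and Wdr7 (0.926). Nlgn1, a postsynaptic adhesion protein (0.926), Lgi1, a secreted synaptic protein linked to epilepsy (0.908), and Synj1, a phosphatase of synaptic vesicle recycling (0.903), were nearest to Gabra4.

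For Gabra2 the nearest genes were Mtmr7 (0.855), Slc2a13 (0.84) and Jak1 (0.794), for Gabra5 Olfm3 (0.859), Cldnd1 (0.824) and Uba3 (0.811), and for Gabrb1 Fah (0.825), Ubn2 (0.803) and Ptp4a3 (0.772). Gabrd was nearest to Wnt10a (0.774), Stambp (0.758) and the unnamed gene with ID 29347 (0.737). The lowest rho of each member was -0.783 for Gabra2 with Uap1l1, -0.892 for Gabra3 with Cd99, -0.875 for Gabra4 with Plekhj1 and -0.83 for Gabra5 with Slc9a5. It was -0.759 for Gabrb1 with Tnfaip1, -0.85 for Gabrb2 with Bcat2 and -0.761 for Gabrd with Yy1. These 28 relations were picked as extremes over the same libraries, so their p-values and their values within the sets are descriptions, not separate support. Each had an adjusted permutation p of 6.36e-04, which is what the smallest permutation p gives, and the same sign in both sets of libraries. Centred within the sets 27 of them were called, the exception being Gabrd with Yy1 (rho = -0.471, adjusted permutation p = 0.0769). The nearest genes of Gabrb2 kept a rho of 0.918 or more in both sets of libraries, whereas Stambp with Gabrd had 0.815 up to 31 and 0.3 from 32.

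Some other GABA-A subunit genes ran with Gabra3, Gabra4 and Gabrb2. Of the 9 reported here 3 had a mean count of at least 10, and 6 of their 21 relations with the members were called, all with a positive rho (28.6%, beside 7.29% of all member-gene pairs; median rho 0.269). By genes, 2 of the 3 were called positive and none negative with at least 1 member, beside 25.8% and 23.2% of all genes other than the members. Gabrg1 followed Gabrb2 (0.83), Gabra3 (0.725) and Gabra4 (0.663), and Gabrg3 followed Gabrb2 (0.748), Gabra4 (0.734) and Gabra3 (0.621). Both are gamma subunit genes. All 6 relations were called when centred within the sets of libraries and without library 3, but within libraries from 32 Gabrg3 had a rho of 0.0455 with Gabra3 and 0.255 with Gabra4. Gabrr2, best known from the retina, was called with no member, and neither was Gabrd with any of these genes.

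**Figure D4:**
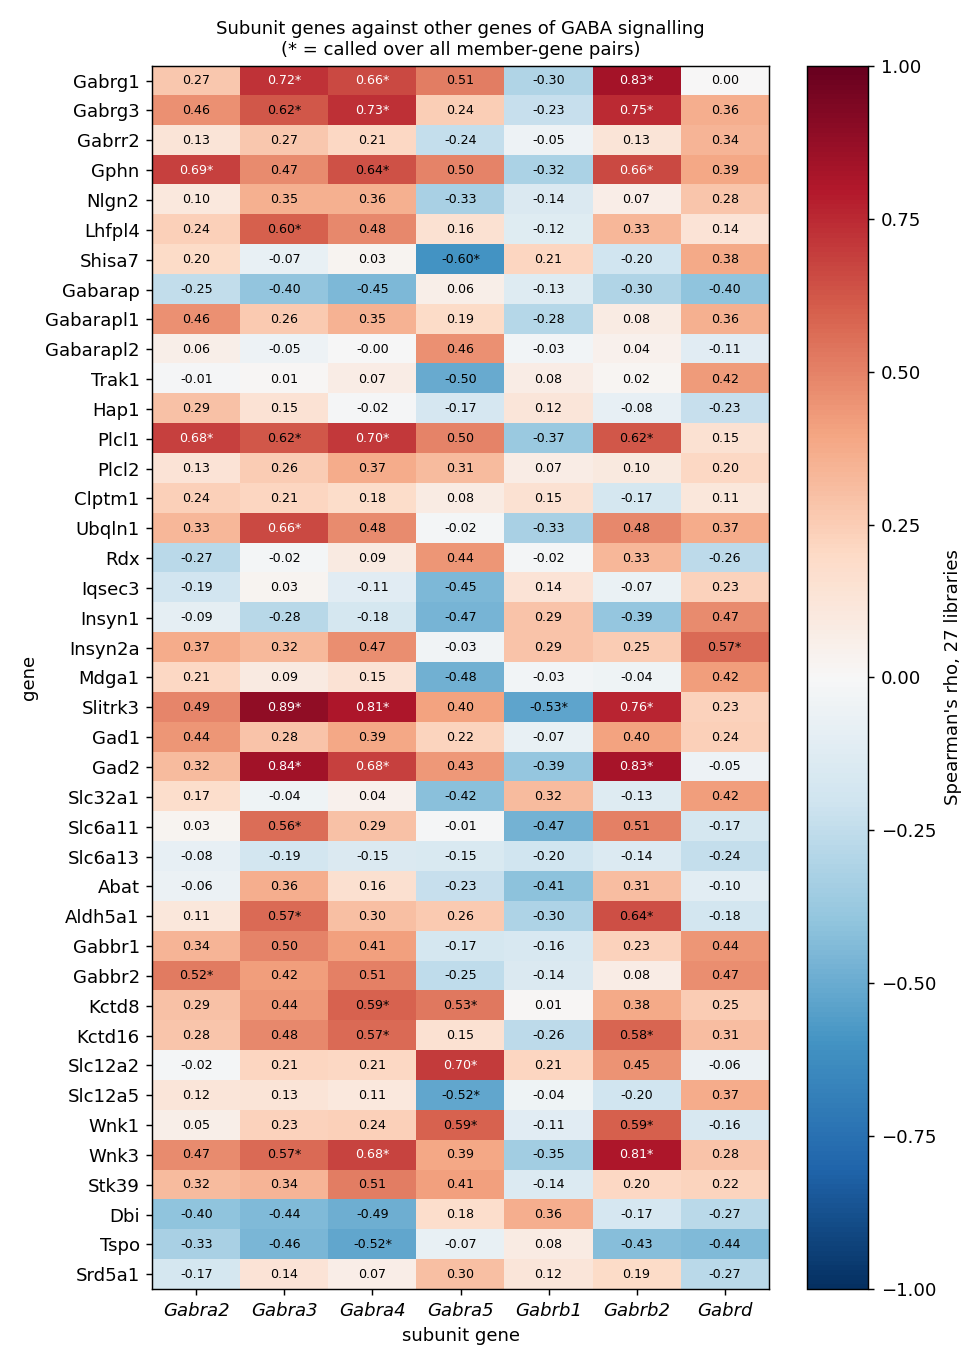
Spearman's rho over 27 libraries between the 7 subunit genes (columns) and the tested genes of the other GABA-A subunits, receptor anchoring and trafficking, GABA synthesis and transport, GABA-B receptors, chloride transport and ligand-side modulators (rows), with an asterisk for relations called over all member-gene pairs. Gabrg1, Slitrk3 and Gad2 are strongly positive with Gabra3, Gabra4 and Gabrb2, and the Gabrd column has 1 asterisk, at Insyn2a.

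Among 19 tested genes of receptor anchoring and trafficking, 6 were called positive and 2 negative with at least 1 member, beside 25.8% and 23.2% of all genes. The positive count was thus near that share and the negative one below it. By relations, 13 of 133 were positive (9.77%) and 2 negative (1.50%), beside 7.29% and 5.31% of all member-gene pairs. Slitrk3, an adhesion protein of inhibitory synapses, had the largest values (0.89 with Gabra3, 0.806 with Gabra4, 0.763 with Gabrb2), and these were 0.956, 0.847 and 0.8 in libraries up to 31 and 0.691, 0.918 and 0.582 from 32. Its rho with Gabrb1 (-0.531) was not called when centred within the sets (-0.496, adjusted permutation p = 0.0577). Gphn, the gephyrin scaffold of inhibitory synapses, followed Gabra2 (0.686), Gabrb2 (0.658) and Gabra4 (0.636), with 0.5 or more in either set.

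The other calls on this list included genes that themselves differed between the sets of libraries. Shisa7, an accessory protein of the receptor, was negative with Gabra5 (-0.596), and centred within the sets the value was -0.452 (adjusted permutation p = 0.0929) and was not called. Insyn2a, a component of inhibitory postsynapses, was called with Gabrd (0.57, adjusted permutation p = 0.0276). Both Insyn2a (log2 difference 0.22, SE 0.07, edgeR adjusted p = 0.0275) and Gabrd were higher from 32. Within the sets rho was 0.5 and 0.118, and centred it was 0.318 (adjusted permutation p = 0.279), so the relation did not hold there.

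Of 7 genes of GABA synthesis, release, uptake and breakdown, 3 were called positive and none negative with at least 1 member, beside 25.8% and 23.2% of all genes. By relations, 6 of 49 were positive (12.2%) and none negative, beside 7.29% and 5.31% of all member-gene pairs. Gad2, a GABA-making enzyme, followed Gabra3 (0.838), Gabrb2 (0.827) and Gabra4 (0.681), with 0.891, 0.903 and 0.776 in libraries up to 31 and 0.491, 0.582 and 0.655 from 32. Gad1, the other such enzyme, was called with no member (its largest rho was 0.441, with Gabra2). The smallest called rho on this list was 0.557, for Slc6a11 with Gabra3. Without library 3 that relation (0.504, adjusted permutation p = 0.0727) and Aldh5a1 with Gabra3 (0.523, adjusted permutation p = 0.0601) were not called. Of 5 genes of chloride transport and its kinases, 3 were called positive and 1 negative with at least 1 member, beside 25.8% and 23.2% of all genes. By relations, 6 of 35 were positive (17.1%) and 1 negative (2.86%), beside 7.29% and 5.31%. Wnk3, a kinase on this list with 3 to 62 counts, had the largest value, 0.81 with Gabrb2 (0.774 and 0.882 within the sets). It was also called with Gabra4 (0.675) and Gabra3 (0.57), and Wnk1 with Gabrb2 (0.594) and Gabra5 (0.59). Slc12a2, which brings chloride into cells, had a rho of 0.697 with Gabra5 (0.797 and 0.609 within the sets). Slc12a5, the neuronal chloride exporter, had -0.52 with Gabra5 (adjusted permutation p = 0.048), but centred within the sets -0.419 (adjusted permutation p = 0.129), which was not called.

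Of the 4 tested GABA-B genes 3 were called positive and none negative with at least 1 member, beside 25.8% and 23.2% of all genes, and 5 of 28 relations were called, all positive (17.9%, beside 7.29%). The largest was Kctd8 with Gabra4 (0.593, and 0.707 without library 3) and the smallest Gabbr2 with Gabra2 (0.523). Without library 3, Gabbr2 with Gabra2 (0.465, adjusted permutation p = 0.104) and Kctd8 with Gabra5 (0.491, adjusted permutation p = 0.0838) were not called. With so few genes on these lists, and members that ran together, the shares are descriptions and were not tested. Of the 3 ligand-side modulators Tspo was called, with Gabra4 (-0.523), the single call among 21 relations (4.76% negative, beside 5.31%, and none positive, beside 7.29%). It was -0.768 in libraries up to 31 and -0.164 from 32, and without library 3 -0.466 (adjusted permutation p = 0.103), which was not called. Over all lists 40 relations were called, of which 38 had the same sign in both sets (Aldh5a1 with Gabra3 and with Gabrb2 did not), 33 were called when centred within the sets and 31 without library 3.

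Several members ran with markers of cell types, taken as mean z scores, or with library measures. In bulk tissue fewer cells of a type and less RNA per cell cannot be told apart. The excitatory neuron score (5 of 5 markers tested, summed level 11616 to 22237 normalised counts) was called with Gabra3 (rho = 0.791), Gabra4 (0.77) and Gabra2 (0.587), where 11.8% of all genes were called. Pearson's r was 0.9, 0.848 and 0.705 (permutation p = 1.00e-05, 1.00e-05 and 2.30e-04), and without the 2 libraries farthest from the median score 0.778, 0.728 and 0.436. Within the 2 sets of libraries rho was 0.841 and 0.782 for Gabra3, 0.8 and 0.727 for Gabra4, and 0.718 and 0.218 for Gabra2. Without library 3 the value of Gabra2 was 0.537 and was not called. Gabrb1 had a rho of -0.507 with this score (adjusted permutation p = 0.0557), at -0.726 and -0.645 within the sets, and Gabrb2 had 0.451 (adjusted permutation p = 0.0954). With the interneuron score, rho was 0.573 for Gabra2, 0.509 for Gabra3, 0.512 for Gabra4 and 0.47 for Gabrb2. With the upper-layer neuron score it was 0.509, 0.547, 0.537 and 0.284 in the same order. None of these was called, where 0.298% and 1.47% of all genes were. Positive values were thus not limited to excitatory neuron markers.

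**Figure D5:**
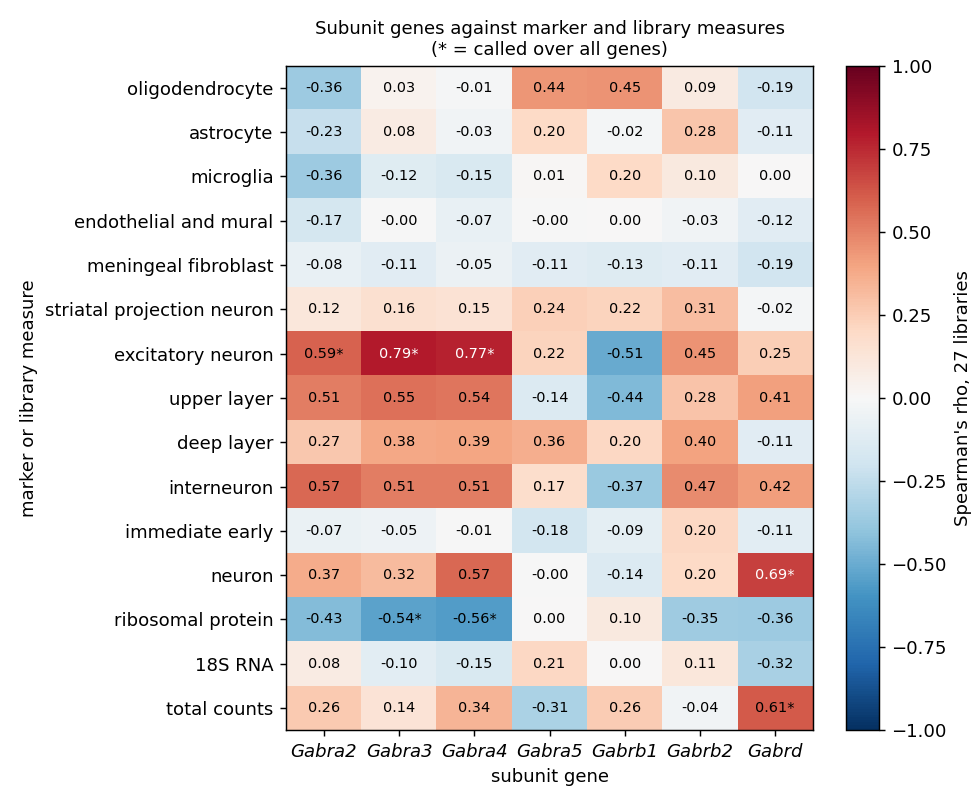
Spearman's rho over 27 libraries between each subunit gene (columns) and 15 marker or library measures (rows), with an asterisk for values called over all genes. Asterisks mark 7 values, 3 of them in the excitatory neuron row, and oligodendrocyte markers have none.

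With the excitatory neuron score regressed out of every gene, an analysis added after the values were seen, the same number of pairs was called. The relation of Gabra3 with Gabra4 had a rho of 0.699 in that fit, that of Gabra4 with Gabrb2 0.715, that of Gabra3 with Gabrb2 0.756 and that of Gabra2 with Gabra4 0.643. The ribosomal protein score (86 genes, summed level 86379 to 152362) was called with Gabra4 (rho = -0.556, r = -0.771, permutation p = 1.10e-04) and Gabra3 (rho = -0.538, r = -0.844, permutation p = 2.00e-05), where 19.1% of all genes were. Within the sets rho was -0.674 and -0.373 for Gabra4 and -0.821 and -0.4 for Gabra3. Library 3 had the highest summed level, and without it rho was -0.503 and -0.483 and neither was called. Oligodendrocyte markers (10 of 10 tested, 19001 to 66330) were called with no member, with rho from -0.361 (Gabra2) to 0.449 (Gabrb1). The part of these measures in the relations between members was not tested beyond the values given.

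Gabrd was called with the general neuron score of Snap25, Syt1 and Rbfox3 (rho = 0.687, r = 0.695, permutation p = 7.00e-05), where 0.708% of all genes were. The value of rho was 0.809 in libraries up to 31 and 0.491 from 32, and r was 0.631 without the 2 farthest libraries. Without library 3 its rho was 0.652 (adjusted permutation p = 0.0668) and was not called. Gabrd also ran with the total count of the library (rho = 0.614, r = 0.601, permutation p = 9.60e-04), where 16.9% of genes were called. Within the sets of libraries that value was 0.435 and 0.255, and centred within the sets it was 0.316 (adjusted permutation p = 0.41), so it did not hold there.

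Between the 2 sets of libraries, 1 of the 7 members differed (edgeR quasi-likelihood test, Benjamini-Hochberg adjusted), where 8.85% of the 11716 genes tested were higher and 9.18% lower from 32. This was Gabrd, with 537 ± 35.3 normalised counts (SD, n = 16) up to 31 and 596 ± 50.4 (n = 11) from 32. Its lowest, median and highest values were 483, 537 and 606 in the first and 512, 590 and 672 in the second, so the sets overlapped, and 4 of the 11 libraries from 32 lay above the highest earlier one. The log2 difference was 0.15 (SE 0.04, edgeR adjusted p = 0.0135). Gabrb1 had 140 ± 31.7 and 166 ± 35.6, a log2 difference of 0.24 (SE 0.11, edgeR adjusted p = 0.131), and without library 3 it was 0.30 and passed (edgeR adjusted p = 0.029). For the other 5 members the log2 difference lay between -0.40 (Gabrb2, SE 0.33, edgeR adjusted p = 0.446) and 0.08 (Gabra4, SE 0.12, edgeR adjusted p = 0.675), and none passed. On the other lists, 3 anchoring and trafficking genes were higher and 1 lower from 32, none of the 3 tested genes of other subunits passed, and Slc32a1, the vesicular GABA carrier, was higher (log2 difference 0.22, SE 0.05, edgeR adjusted p = 0.00444). Gabbr2, a GABA-B receptor subunit, (0.25) and Slc12a5 (0.14) were higher too, and Wnk1, a kinase that acts on chloride carriers, (-0.13) and Tspo (-0.63) were lower, with edgeR adjusted p of 0.025, 0.0282, 0.0453 and 0.017.

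The spread of Gabra2, Gabra3 and Gabra4 was wider among the earlier libraries. The SD of log2 values was 0.49 up to 31 and 0.14 from 32 for Gabra3, 0.43 and 0.17 for Gabra4, and 0.29 and 0.11 for Gabra2. In Gabrb2 it was 1.28 and 0.77, while Gabrb1 (0.30 and 0.28), Gabra5 (0.27 and 0.20) and Gabrd (0.09 and 0.12) had closer values. Library 3 belongs to the first set. Without it the values up to 31 were 0.29 for Gabra3, 0.31 for Gabra4, 0.22 for Gabra2 and 0.95 for Gabrb2 (n = 15). The difference in spread between the sets was not tested.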

How the data were processed

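The authors deposited raw read counts per gene and library, without normalization. The submitters' processing notes name Trimmomatic, STAR and HTSeq, without versions; the genome build and strandedness are not given in the sources used here. The tissue section and library kit are described differently in the labels and the study's methods. Gene IDs were named from RefSeq (GRCr8; 28157 of 36865 rows matched).

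Counts were scaled by DESeq2 1.42.0 median-of-ratios size factors, and log values are log2(normalised count + 1). The 11730 genes averaging 10 counts or more were tested. Spearman's rho and Pearson's r across the 27 rats had two-sided permutation p-values (100000 permutations), with Benjamini-Hochberg adjustment of rho over all member-gene pairs, or over all genes for each score, at 0.05. P-values of Pearson's r are unadjusted. The libraries up to 31 and from 32 were compared with edgeR 4.0.16 (quasi-likelihood, TMM, filterByExpr; limma 3.58.1, R 4.3.3), and DESeq2 was the alternative. Spread was tested against a Poisson distribution. Reads lacked molecular identifiers, so counting noise and intervals cover counting error only. Python 3.11.15 with numpy 2.4.6 and scipy 1.17.1 was used. On simulated counts the Spearman test recovered 160 of 200 related genes among 11730 with 5 false calls, the dispersion test 194 with 12, and the edgeR test 165 of 200 among 11675 with 12.

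The members, gene lists and tests were chosen with earlier results of these data known. Named genes were the 7 members, the 3 genes with the highest and the 1 with the lowest rho for each member, and, from each list, called genes with the largest and smallest effects. Other list genes (such as Gphn, Shisa7 and Gad1), Snap25, Slc17a7, Sst and Nsf were named after their values were seen. Some genes of the lists are not reported here and were left out of the list counts.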

Additional observations from a re-analysis of the deposited data

How the results depend on the processing

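The relations were recomputed under 14 alternatives. Gabra3 with Gabra4, Gabra4 with Gabrb2 and Gabra3 with Gabrb2 were called under all 14, at adjusted p up to 0.00684, 0.0064 and 0.0181. Gabra2 with Gabra4 was lost without libraries 12 and 20 (rho 0.568, adjusted permutation p = 0.0568). The number of called pairs, 4, was 10 with the oligodendrocyte score regressed out, 12 with it and the block, 8 with the ribosomal protein score regressed out, 9 by Pearson's r and 8 by edgeR regression on the member's level, and stayed at 3 to 6 elsewhere. The called relations of members with scores, 7 over 4 members, became 11 when centred within sets of libraries and 3 without library 3, and the members differing between sets rose from 1 to 2 without library 3. These alternatives without library 3, without libraries 3 and 54 and with the excitatory neuron score regressed out were added after seeing the data, as were the recomputed relations of list and nearest genes and the spread without library 3.

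Each value whose sign turned was called neither in the reported analysis nor under the alternative. Gabra3 with Gabrd went from 0.0604 to -0.036 (total counts), -0.044 (oligodendrocyte score), -0.16 (ribosomal protein score), -0.0421 (excitatory neuron score), -0.0448 (without library 3) and -0.00538 (without libraries 3 and 54). Gabrb1 with Gabrd went from -0.00183 to 0.0201, 0.281, 0.216, 0.353, 0.0954 and 0.0369 in the same order, to 0.0236 by Pearson's r and to a slope of 7.07e-04 by edgeR. Gabra5 with Gabrd became 0.192 (block and oligodendrocyte score), Gabrb2 with Gabrd -0.0421 (ribosomal protein score), and Gabra2 with Gabra5 -0.0201 and Gabra4 with Gabrb1 0.0641, from -0.404 (excitatory neuron score). Between sets of libraries, the log2 difference of Gabra3 became 0.00 without a filter, 0.01 with the oligodendrocyte score and 0.06 without libraries 12 and 20, and that of Gabra2 -0.02 without library 3. The cause was not tested. The depth of 3 counts of Gabrb2 in library 3 limits its range.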
